A study of Mus musculus with 7 samples.

Results

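The genes described here are the oocyte-expressed members of the NLRP family other than Nlrp5. They were found by symbol and are Nlrp2, Nlrp4a, Nlrp4b, Nlrp4c, Nlrp4e, Nlrp4f, Nlrp9a, Nlrp9b, Nlrp9c and Nlrp14, which make 10 of the 55364 genes listed in the RNA-seq table of mini-oocytes. Mini-oocytes are oocyte-like cells grown in flat culture, with no ovarian somatic cells, from mouse embryonic stem cells (mESCs) that are forced to express oocyte transcription factors. 4F-mini-oocytes carried Nobox, Figla, Tbpl2 and Lhx8, and 8F-mini-oocytes carried these and Stat3, Dynll1, Sub1 and Sohlh1. The libraries were 4F-mini-oocytes at day 7 (n = 2, pools of 1000 cells), 4F-mini-oocytes at day 21 (n = 3, pools of 10 cells) and 8F-mini-oocytes at day 21 (n = 2, pools of 10 cells). All groups came from BVSC H18, a female mESC line of strain hybrid 129/C57BL6, and all were grown with SCF (a growth factor), Y-27632 (an inhibitor of ROCK kinases) and Shield-1 (a ligand that stabilises proteins carrying its binding domain), the last of which was left out of fresh medium from day 12. The 4F and 8F cells are different mESC lines. The labels do not state that replicates were separate cultures, so each p-value measures the spread between these libraries, which may be technical.

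NLRP proteins hold a NACHT domain, which binds nucleotide, and leucine-rich repeats, and most begin with a pyrin domain. Several relatives, such as NLRP3, build inflammasomes, the platforms that activate caspase-1 in innate immunity. A branch of the family, parts of which expanded by duplication in rodents, is transcribed mainly in oocytes, where the RNA and protein are stored for the embryo. The best studied oocyte member is Nlrp5 (Mater), a core subunit of the subcortical maternal complex (SCMC), which lies under the oocyte membrane and is needed for early cleavage. Nlrp2 and Nlrp4f have been found with that complex, and females lacking Nlrp2 or Nlrp14 produce embryos that fail early.

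In 4F-mini-oocytes all 10 genes were higher at day 21 than at day 7 and passed the test (limma, FDR 0.05), beside 25.3% of all tested genes called higher and 40.6% called in either direction. Genes were tested where 2 or more libraries reached 1 TPM. Nlrp2, Nlrp9a and Nlrp9c reached this only through day 21 libraries, where they were high, so their calls are no separate support. Nlrp14 and Nlrp4f stood above the rest in each group. At day 21 the 10 genes together made up 0.669%, 0.624% and 0.665% of the TPM in 4F-mini-oocytes, against 0.0394% and 0.103% at day 7. In 8F-mini-oocytes they made up 0.726% and 0.622%. TPM counts reads per base of exon in each gene and then brings all libraries to an equal sum. Levels of different genes can be set side by side only roughly. The exon bases of a gene can exceed the length of its transcript, and reads from sequence that recurs at another place were lost. At day 21 the summed levels of the 2 factor sets overlapped, and those at day 7 lay below both. Within that sum Nlrp2, Nlrp4c and Nlrp4f were lower, and Nlrp4b, Nlrp4e, Nlrp9a and Nlrp9c higher, in every 8F than in every 4F library at day 21, beside 43.8% of all tested genes whose 4F and 8F libraries did not overlap. In the test between the factor sets 0 of the 10 genes passed FDR 0.05, beside 8.37% of all tested genes. Those 1822 calls became 306 without 8F replicate 1 and 357 without 8F replicate 2.

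**Figure D1:**
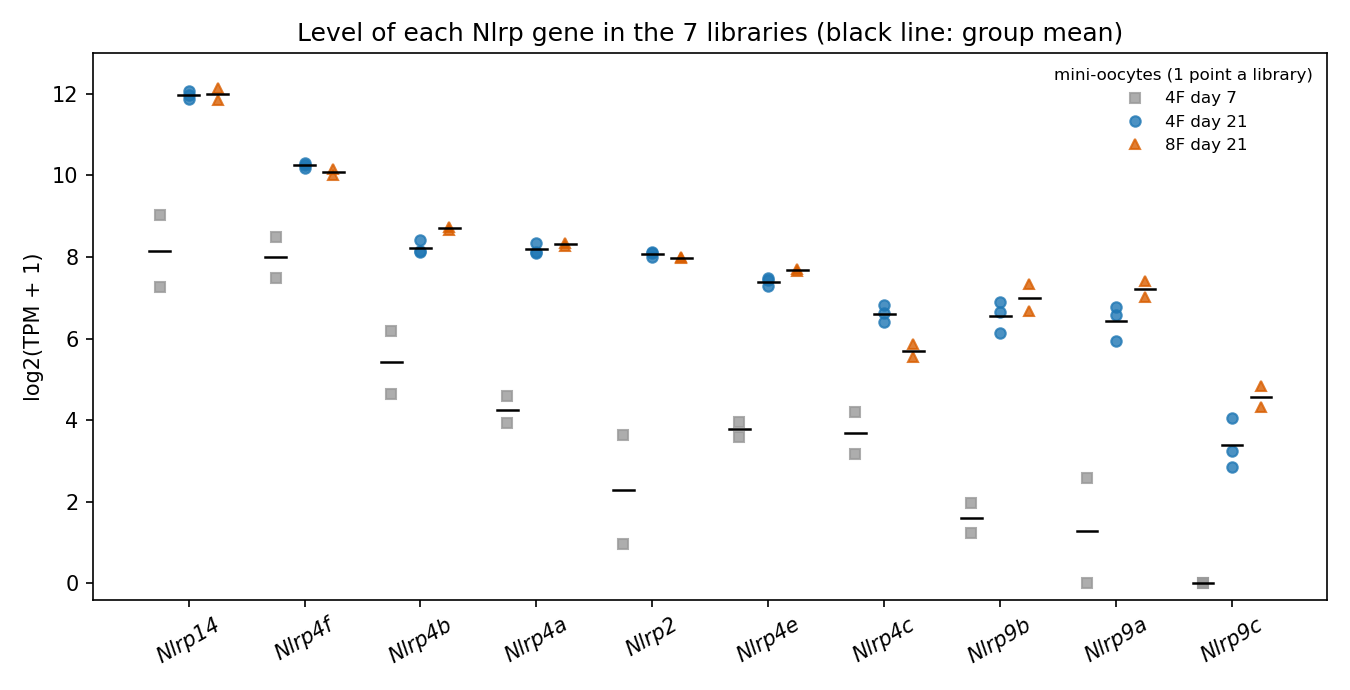
Level of the 10 Nlrp genes in each library, as log2(TPM + 1) on the vertical axis, with genes in order of their mean in 4F-mini-oocytes at day 21. Each point is a library (grey squares 4F day 7, blue circles 4F day 21, orange triangles 8F day 21) and each black line is the group mean. The 5 day 21 libraries lie above both day 7 libraries for every gene.

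Depth and identity of the libraries were checked first. The steps between low TPM values put the depth of a library at 9506135 to 18027834 reads on genes, and the smallest level that 3 reads can show lay between 0.0868 and 0.225 TPM for the 10 genes. The 10 most abundant genes of each library took 28.5% and 31.8% of the TPM at day 7 and 10.2% to 14.0% at day 21. Oocyte markers (Zp1, Zp2, Zp3, Gdf9, Bmp15, Npm2 and Oosp1) summed to between 3987 and 4945 TPM at day 7 and between 20280 and 24286 TPM at day 21. The 8 granulosa cell markers summed to between 0.519 and 5.58 TPM over all libraries, with Inha at 0 throughout. The 8 leukocyte markers summed to 12.4 and 24.3 TPM at day 7, 1.48 to 2.71 in 4F and 8.96 and 9.55 in 8F at day 21, with Adgre1, Lyz2 and Tyrobp at 0 throughout. The 7 markers of pluripotent stem cells, among them Pou5f1, which oocytes also express, summed to 85.8 and 96.9 TPM at day 7, 243.0 to 359.7 in 4F and 137 and 178 in 8F at day 21. These sums move with day and, in part, with factor set, and their part in the results below was not tested. The day, the number of cells pooled and the supply of Shield-1, left out of fresh medium from day 12, also change together. The 4F and 8F columns were written with different numbers of decimals, and the study used 2 instruments with different read lengths without naming the libraries run on each. Effects of these and of the factor set cannot be told apart.

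Nlrp14, on which the calcium balance of the fertilised egg is known to depend, was the most abundant of the 10 genes (ENSMUSG00000016626.10, chr7:107166990-107198102 in mm10, plus strand, 12 exon blocks). Its level was 153 and 523 TPM at day 7. In 4F-mini-oocytes at day 21 it was 3982, 3735 and 4259 TPM, and in 8F-mini-oocytes 4511 and 3706 TPM. All day 21 libraries were above both day 7 libraries, and the 8F values lay on either side of the 4F values. Ranked by TPM among all listed genes, Nlrp14 was at place 634 and 136 at day 7, at 16, 17 and 14 in 4F and at 15 and 16 in 8F. The change from day 7 to day 21 was 3.81 on the log2 scale (SE 0.465; limma, Benjamini-Hochberg adjusted p = 0.00113). It was 2.93 without replicate 1 of day 7 and 4.70 without replicate 2. In a bulk sample, fewer cells of a type and less RNA per cell cannot be told apart.

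Nlrp4f, a partner of the SCMC in oocytes, was next (ENSMUSG00000032999.10, chr13:65177111-65205977, minus strand) and is the only one of the 10 not on chromosome 7. It was at 178 and 362 TPM at day 7, at 1254, 1227 and 1159 TPM in 4F and at 1134 and 1036 TPM in 8F at day 21. Both 8F libraries were just below all 3 of 4F. Its change with day was 2.25 (SE 0.274; limma, Benjamini-Hochberg adjusted p = 0.00112). At day 7 Nlrp14 and Nlrp4f overlapped, with a ratio of 0.857 and 1.44 in the 2 libraries. At day 21 the ratio of Nlrp14 to Nlrp4f was 3.17, 3.04 and 3.68 in 4F and 3.98 and 3.58 in 8F. Nlrp4f held 45.2% and 35.2% of the summed level of the 10 genes at day 7 and between 15.6% and 19.7% at day 21, while Nlrp14 went from 38.7% and 50.9% to between 59.6% and 64.0%.

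Nlrp2, which in the mother is needed for the imprints and survival of the embryo, has its gene near the start of chromosome 7 (ENSMUSG00000035177.8, chr7:5298547-5351035, minus strand). It was at 0.944 and 11.5 TPM at day 7, which rest on 13 and 210 recovered reads. It was at 256, 271 and 278 TPM in 4F and at 253.1 and 249.8 TPM in 8F at day 21. The day 7 libraries differed from each other 12.1-fold, whereas the 5 libraries at day 21 were close together. The change with day was 5.77 (SE 0.681; limma, Benjamini-Hochberg adjusted p = 0.000987). It was 4.43 without replicate 1 of day 7 and 7.11 without replicate 2. Nlrp2 overlaps 2 genes on the other strand. Gm18757 shares 105 exon bases with it, 2.99% of its exons, and stayed at or below 0.612 TPM. Gm5065 overlaps its span with no shared exon base, and no strand option is stated for the counting. It was at 3.91 and 12.0 TPM at day 7 and between 94.9 and 148 TPM at day 21.

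The Nlrp4 genes on chromosome 7 are close copies of each other. Nlrp4a, Nlrp4b and Nlrp4c are alike from before the transcription start: in the RefSeq promoters (GRCm38.p6, 250 bases before to 50 after each start), 280 aligned bases of Nlrp4a and Nlrp4b were 81.8% identical, 260 of Nlrp4a and Nlrp4c 80.8%, and 256 of Nlrp4b and Nlrp4c 81.6%. Promoters were found for 9 of the 10 genes, all but Nlrp14. The stretches below, written 5′ to 3′ on the strand of the gene, are shown because these 3 promoters hold the same pair of E-boxes (CANNTG, a site read by basic helix-loop-helix factors, the class to which Figla and Sohlh1 belong), set in capitals.
Nlrp4a (chr7:26435529-26435627, plus strand): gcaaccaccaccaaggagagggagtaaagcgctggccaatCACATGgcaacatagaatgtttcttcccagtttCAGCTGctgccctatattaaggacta
Nlrp4b (chr7:10687704-10687802, plus strand): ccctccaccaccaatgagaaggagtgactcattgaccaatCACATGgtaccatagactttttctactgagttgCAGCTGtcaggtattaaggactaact
Nlrp4c (chr7:6045108-6045205, plus strand): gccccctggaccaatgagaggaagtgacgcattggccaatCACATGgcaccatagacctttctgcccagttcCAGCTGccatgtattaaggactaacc
The first capitals, CACATG, begin at -45 in Nlrp4a, at -49 in Nlrp4b and at -13 in Nlrp4c, counted from the annotated start, and the second, CAGCTG, 33, 33 and 32 bases further on. For Nlrp4a the downstream of its 2 annotated starts is shown, and for Nlrp4b the upstream of 2. A CACATG followed by a CAGCTG after 26 or 27 bases, searched on both strands, was present in promoters of 10 of 27025 genes (0.037%), 7 of them outside this family. The pair was picked after the sequences were seen. Any CANNTG was present in 8 of the 9 promoters of the family (88.9%), against 72.1% of all genes, and CCAAT, on either strand, in 7 of 9, against 41.1%. CCAAT was not among the motifs first listed and was counted after the sequences were seen. The promoters of Nlrp4a, Nlrp4b and Nlrp4c are alike, as are those of Nlrp9a and Nlrp9c. These counts are thus not of separate sequences and are not read as enrichment. The homeobox core sites TAATTG and TAATTA, a form read by Nobox and by LIM factors such as Lhx8, were present in 2 and 1 of the 9 (22.2% and 11.1%, against 8.15% and 5.31% of all genes), and TATAAA in 1 of 9 (11.1% against 14.2%). These are matches of letters, not measured binding.

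Nlrp4b (ENSMUSG00000034087.14, chr7:10687789-10730168, plus strand) was at 24.1 and 72.2 TPM at day 7, at 343, 282 and 275 TPM in 4F and at 428 and 404 TPM in 8F at day 21. Nlrp4a (ENSMUSG00000040601.13, chr7:26435113-26476142, plus strand) was at 14.3 and 23.0 TPM at day 7, at 325, 276 and 274 TPM in 4F and at 325 and 308 TPM in 8F at day 21. In 4F-mini-oocytes at day 21 the ranges of these genes and of Nlrp2 overlapped, so their order is not fixed by these libraries. In 8F-mini-oocytes all libraries of Nlrp4b were above those of Nlrp4a. From day 7 to day 21 Nlrp4b rose by 2.81 on the log2 scale (SE 0.408; limma, Benjamini-Hochberg adjusted p = 0.00225) and Nlrp4a by 3.93 (SE 0.199; adjusted p = 6.48e-05). The value of Nlrp4b was 2.03 without replicate 1 of day 7 and 3.58 without replicate 2.

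Nlrp4e (ENSMUSG00000045693.8, chr7:23301192-23362277, plus strand), which early embryos are known to need, was at 14.6 and 11.0 TPM at day 7, at 177, 155 and 171 TPM in 4F and at 202 and 207 TPM in 8F at day 21. It was the only gene of the 10 that was lower in replicate 2 than in replicate 1 at day 7. The change with day was 3.63 (SE 0.142; limma, Benjamini-Hochberg adjusted p = 3.79e-05). Nlrp4c (ENSMUSG00000034690.13, chr7:6045161-6105150, plus strand) was at 7.95 and 17.5 TPM at day 7, at 113, 83.2 and 97.1 TPM in 4F and at 46.1 and 57.0 TPM in 8F at day 21. Every 8F library was above day 7 and below 4F at day 21. It rose by 2.93 from day 7 to day 21 in 4F (SE 0.315; limma, Benjamini-Hochberg adjusted p = 0.000687).

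Nlrp4c and Nlrp4e have the most alike transcripts of the 10 genes, with 93.2% identity over 3366 aligned bases. Only reads that map to 1 place were kept. Reads from stretches that recur at another place were lost, and short reads lose more than long ones. The shares of stretches given below also count genes annotated over the same bases, where reads were divided between genes and not lost. Of the 50-base stretches of the annotated Nlrp4e transcripts, 36.7% also occur in transcripts of other genes, mainly Gm16443, Gm8486 and Gm4541. That share was 11.5% at 100 bases and 3.38% at 150 bases. For Nlrp4c it was 10.7%, 0.844% and 0% at the same lengths, and Nlrp4b and Nlrp14 shared no stretch of any of the 3 lengths. Gm16443, chosen after its values were seen, was at or below 0.764 TPM in all 4F libraries and at 5.66 and 3.40 TPM in 8F. Nlrp4e had the largest shared part of the 10 genes, and the bearing of lost reads on its values was not tested.

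**Figure D2:**
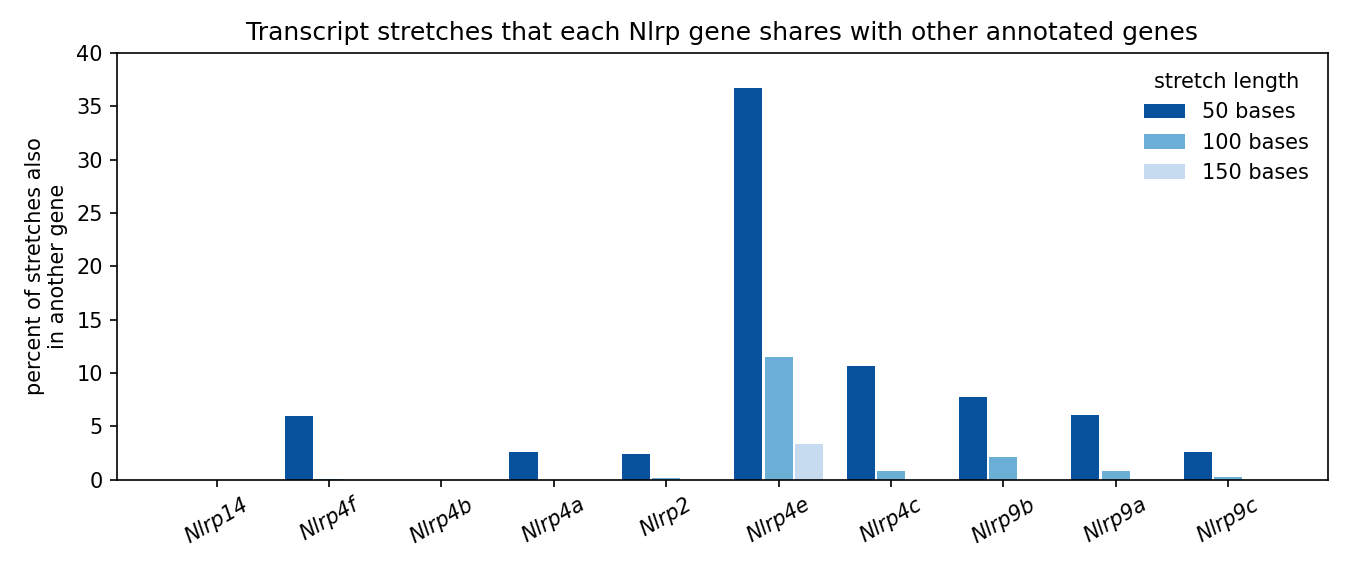
Percent of all 50-, 100- and 150-base stretches in the annotated transcripts of each gene (horizontal axis) that also occur in a transcript of another gene. Nlrp4e stands at 36.7%, 11.5% and 3.38%, and none of the other 9 genes shown shares a stretch of 150 bases.

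The Nlrp9 genes had the lowest means of the family in 4F-mini-oocytes at both days. Nlrp9b has been tied to an inflammasome against rotavirus in gut epithelium, and all 3 copies are transcribed in oocytes. Nlrp9a and Nlrp9c flank Nlrp4a on chromosome 7, with gaps of 58.9 and 31.4 kb and no protein-coding gene between, and their transcripts are 88.2% identical. Their promoters are shown because 222 aligned bases were 97.3% identical. Those bases are the best-matching part of the promoters, whereas the transcripts were aligned from end to end, so these identities cannot be compared. The stretches again run 5′ to 3′ on the strand of the gene, and the capitals mark the E-box CAGGTG.
Nlrp9a (chr7:26534897-26535042, plus strand): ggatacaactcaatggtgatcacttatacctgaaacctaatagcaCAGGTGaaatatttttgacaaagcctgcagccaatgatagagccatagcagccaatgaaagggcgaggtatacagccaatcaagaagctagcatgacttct
Nlrp9c (chr7:26403725-26403870, minus strand): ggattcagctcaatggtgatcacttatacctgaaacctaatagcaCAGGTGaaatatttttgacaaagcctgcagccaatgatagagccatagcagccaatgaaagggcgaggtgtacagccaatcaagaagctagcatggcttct
These 146 bases differ at 4 places, and CCAAT occurs 3 times in each. The E-box begins at -81 in Nlrp9a and at -125 in Nlrp9c.

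Nlrp9a (ENSMUSG00000054102.15, chr7:26535023-26575615, plus strand) was listed at 0 and at 4.95 TPM at day 7, at 109, 94.8 and 60.9 TPM in 4F and at 169 and 129 TPM in 8F at day 21. Nlrp9b (ENSMUSG00000060508.16, chr7:19991465-20073306, plus strand) was at 1.37 and 2.93 TPM at day 7, at 119, 98.9 and 69.3 TPM in 4F and at 161 and 101 TPM in 8F. Nlrp9c (ENSMUSG00000040614.14, chr7:26322473-26403700, minus strand) was listed at 0 in both day 7 libraries, at 8.50, 15.6 and 6.27 TPM in 4F and at 27.5 and 19.1 TPM in 8F. For all 3 genes, replicate 3 was the lowest 4F library at day 21 and replicate 1 the higher 8F library. Of all tested genes, 26.8% were lowest in that 4F library and 46.4% were higher in replicate 1 of 8F. Within a library Nlrp9a and Nlrp9b kept close to each other at day 21, with a ratio of 0.916, 0.958 and 0.879 in 4F and 1.05 and 1.28 in 8F, and Nlrp9a was between 6.06 and 12.8 times Nlrp9c. Nlrp9a has 3483 exon bases and Nlrp9c 5935, while their longest coding transcripts have 3336 and 3216. The part of exon length in the ratio of Nlrp9a to Nlrp9c was not tested.

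From day 7 to day 21 in 4F, Nlrp9a rose by 5.15 (SE 0.700; limma, Benjamini-Hochberg adjusted p = 0.00172), with 3.87 when replicate 1 of day 7 was left out and 6.44 when replicate 2 was. Nlrp9b rose by 4.95 (SE 0.338; adjusted p = 0.000135, same test). Nlrp9c rose by 3.39 (SE 0.444; adjusted p = 0.00148), a fitted value that depends on the pseudocount. Set against the level that 3 reads per library could have shown at day 7 (0.129 TPM in the shallower library), the mean of Nlrp9c was at least 78.6-fold higher in 4F-mini-oocytes and at least 181-fold higher in 8F-mini-oocytes at day 21. The depth at day 7 does not show whether Nlrp9c was absent there. Of the 50-base stretches of Nlrp9a, Nlrp9b and Nlrp9c, 6.07%, 7.79% and 2.61% occur in other genes, in part in each other. The share of Nlrp9b includes 2.31% in the pseudogene Gm18877, which overlaps it by 136 exon bases. Gm18877 was at 7.33 TPM in 1 library of 4F at day 21 and at or below 1.86 TPM elsewhere.

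The 10 genes were also put in order of their levels. This order can also carry exon length and lost reads. Nlrp9c has 5935 exon bases, but its longest coding transcript has 3216. Of 50-base stretches, 36.7% of those of Nlrp4e and 0% of those of Nlrp4b occur in other genes. The part of these in the order was not tested. In 4F-mini-oocytes at day 21, Nlrp14 (3992 ± 262 TPM, SD, n = 3) was above Nlrp4f (1213 ± 49.3), and Nlrp4f above a group of Nlrp4b (300.3 ± 37.5), Nlrp4a (292 ± 28.8) and Nlrp2 (268 ± 11.4), whose ranges overlapped from each to the next. Nlrp4e (168 ± 11.2) came below these and above a group of Nlrp4c (97.7 ± 14.8), Nlrp9b (95.7 ± 24.9) and Nlrp9a (88.2 ± 24.7), which again overlapped, and Nlrp9c (10.1 ± 4.89) was lowest. In 8F-mini-oocytes (n = 2) the order of the first 6 was the same with no overlap between neighbours, and Nlrp4c, at 51.6 ± 7.74 TPM, stood below Nlrp9a (149 ± 28.5) and Nlrp9b (131 ± 42.4), whose ranges overlapped. At day 7 (n = 2) Nlrp14 (338 ± 262) and Nlrp4f (269.9 ± 129.9) overlapped at the top, Nlrp4b (48.1 ± 34.1) followed, and the ranges of Nlrp4a, Nlrp4e, Nlrp4c, Nlrp2, Nlrp9a and Nlrp9b overlapped from each to the next.

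Across the family, 10 of 10 genes passed FDR 0.05 as higher in 4F-mini-oocytes at day 21 than at day 7, and in 10 of 10 no day 21 library overlapped a day 7 library. Nlrp2, Nlrp9a and Nlrp9c entered the test only through day 21 libraries, so these counts draw no separate support from them. Of all tested genes, 33.8% had all 4F day 21 libraries above both day 7 libraries. The median log2 change of the 10 genes was 3.72, or 3.87 with Nlrp9c at its bound, beside 0.17 over all tested genes. In the 18 alternative settings every one of the 10 genes passed FDR 0.05 in the same direction. The day 7 libraries were apart from each other: replicate 2 was above replicate 1 for 8 of the 10 genes and for 6 of the 7 oocyte markers, whereas 40.7% of all tested genes were higher in replicate 2. Without replicate 1 of day 7 the median change of the 10 genes was 3.50, and without replicate 2 it was 3.92.

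8F-mini-oocytes at day 21 were also compared with 4F-mini-oocytes at day 7, which shares its day 7 libraries with the comparison above. Again 10 of 10 genes were called higher, beside 24.2% of all tested genes called higher and 37.2% called in either direction, and in 10 of 10 no library overlapped, beside 43.9% of all tested genes with every 8F library above day 7. Here too Nlrp2, Nlrp9a and Nlrp9c entered the test only through day 21 libraries. Changes ran from 2.02 for Nlrp4c (SE 0.345; limma, Benjamini-Hochberg adjusted p = 0.00519) to 5.93 for Nlrp9a (SE 0.767; adjusted p = 0.00182), and the latter was 4.65 without replicate 1 of day 7 and 7.22 without replicate 2. The median was 3.98 beside 0.24 over all genes. With replicate 2 of the 8F libraries left out, Nlrp4c missed the threshold (1.87, adjusted p = 0.0598) and the other 9 did not.

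**Figure D3:**
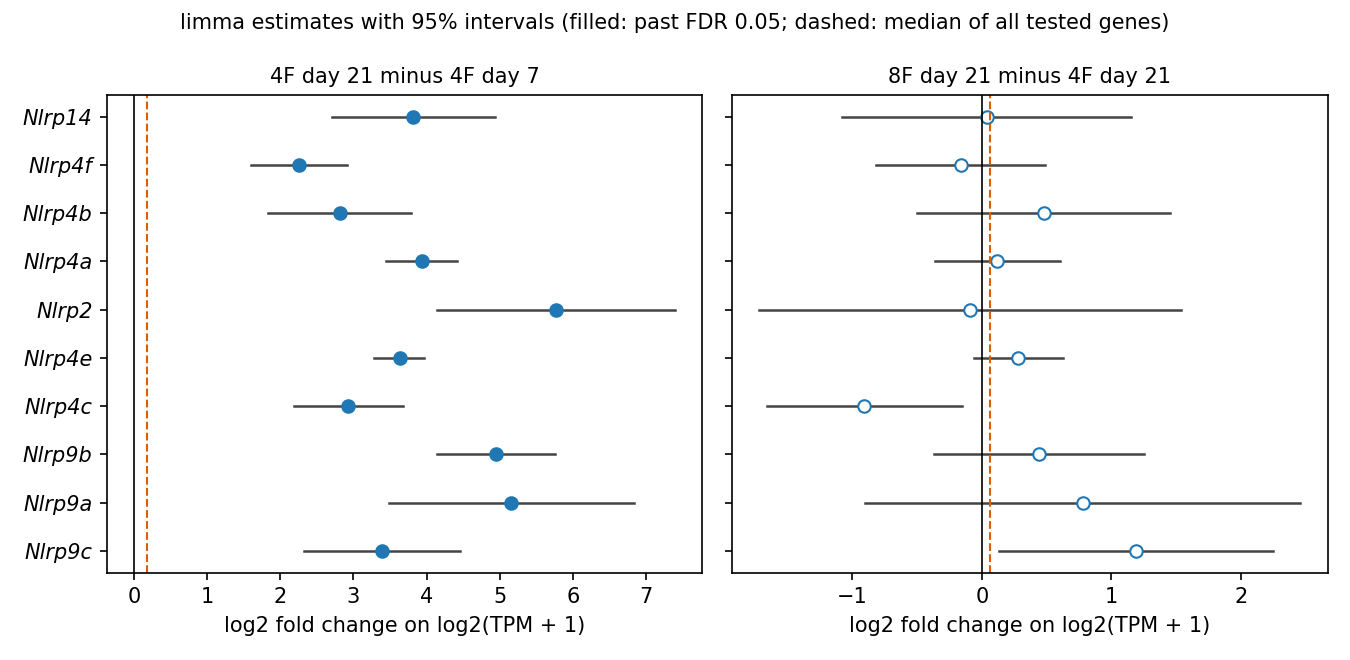
Fitted log2 fold change of each gene on log2(TPM + 1) from limma, with 95% intervals, for 4F day 21 minus 4F day 7 (left) and 8F day 21 minus 4F day 21 (right). Filled points passed FDR 0.05 (10 on the left, 0 on the right), and the dashed line is the median of all tested genes, 0.17 and 0.06.

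Between the factor sets at day 21, 0 of the 10 genes passed FDR 0.05 in limma with Benjamini-Hochberg adjustment. At the same threshold 3.95% of all tested genes were called higher and 4.41% lower in 8F. These shares rest on both 8F libraries, since the 1822 calls fell to 306 without replicate 1 and to 357 without replicate 2. The estimate for Nlrp4c was -0.91 on the log2 scale (95% interval -1.66 to -0.15; limma, Benjamini-Hochberg adjusted p = 0.151). That for Nlrp9c was 1.19 (0.13 to 2.25, adjusted p = 0.176, same test). The intervals of the other 8 genes held 0. The widest were those of Nlrp2 (-1.72 to 1.54) and Nlrp9a (-0.90 to 2.46), and the narrowest those of Nlrp4e (-0.06 to 0.63) and Nlrp4a (-0.36 to 0.60). The fit pools the spread of the 3 groups, so the distance between the day 7 libraries enters these intervals. A miss of the threshold does not show that the levels were alike.

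In ranges, 4 genes had both 8F libraries above all 4F libraries at day 21 (Nlrp4b, Nlrp4e, Nlrp9a and Nlrp9c), 3 had both below (Nlrp2, Nlrp4c and Nlrp4f) and 3 overlapped (Nlrp4a, Nlrp9b and Nlrp14). Of all tested genes 24.1% lay above and 19.8% below. The outcome of the test for Nlrp4c depended on the settings: it passed FDR 0.05 in 5 of the 18 alternatives, with adjusted p-values between 0.0364 and 0.626 over all of them. In limma voom on the recovered reads 4 genes passed, Nlrp4c lower (-0.77, adjusted p = 0.0388) and Nlrp4b (0.62, adjusted p = 0.0422), Nlrp4e (0.44, adjusted p = 0.0193) and Nlrp9c (1.44, adjusted p = 0.0285) higher. The share of all genes called in that setting is not given here, so the count of 4 is not read as a result about the family.

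Because the Nlrp4 genes are read in the same library, their ratios do not depend on the scaling factor of a library. The ratio of Nlrp4b to Nlrp4c was 3.03 and 4.13 at day 7, 3.04, 3.39 and 2.84 in 4F and 9.29 and 7.08 in 8F at day 21. The ratio of Nlrp4e to Nlrp4c was 1.84 and 0.627 at day 7, 1.57, 1.87 and 1.76 in 4F and 4.38 and 3.63 in 8F. Both ratios were higher in each 8F library than in any 4F library. They were computed after the values were seen and carry no test. Nlrp4b shares no 50-base stretch with another gene, whereas Nlrp4e and Nlrp4c do (36.7% and 10.7%), and the part of read length in their ratio was not tested.

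**Figure D4:**
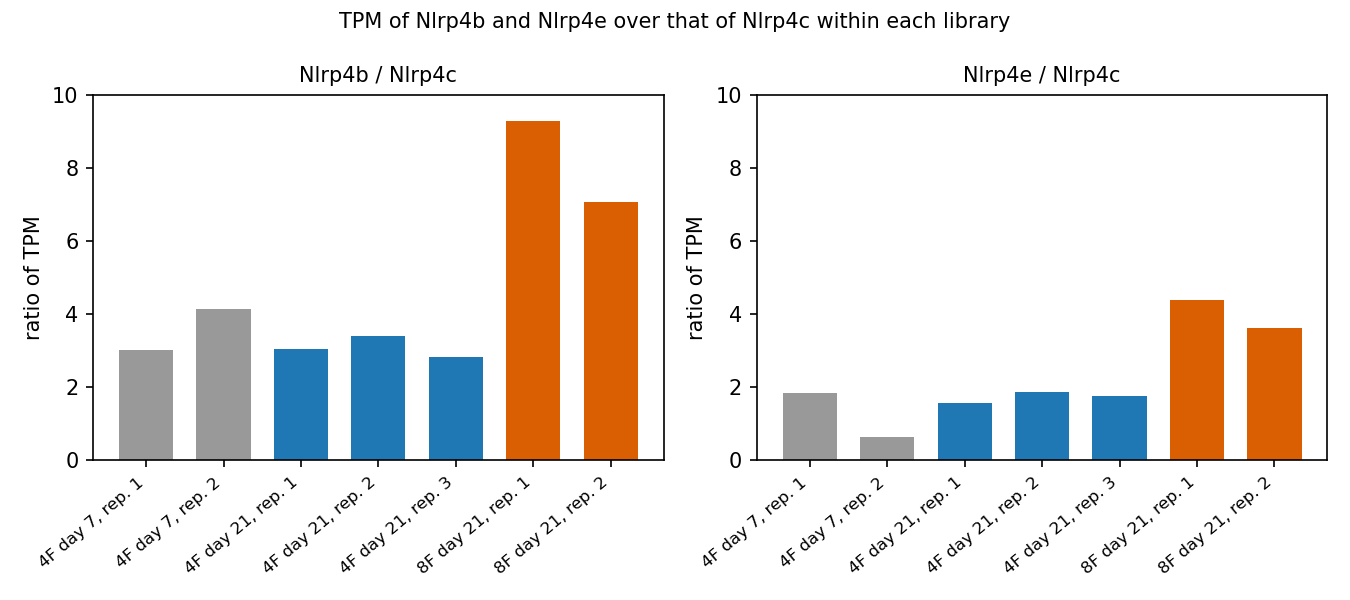
Ratio of the TPM of Nlrp4b (left) and Nlrp4e (right) to that of Nlrp4c, a bar for each library, with the vertical axis from 0 (grey 4F day 7, blue 4F day 21, orange 8F day 21). The 8F bars reach 9.29 and 7.08 on the left and 4.38 and 3.63 on the right, above all 4F bars.

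Nlrp5, 23.6 kb from Nlrp4e with no protein-coding gene between them, was at 1527 and 2264 TPM at day 7, at 5704, 6338 and 6125 TPM in 4F and at 3474 and 3294 TPM in 8F at day 21. Unlike the 10 genes it passed the test between the factor sets, as lower in 8F (-0.84, SE 0.194; limma, Benjamini-Hochberg adjusted p = 0.0488). That call held in 7 of the 18 alternatives, with adjusted p-values between 0.00289 and 0.343, and was lost when any 1 of the 5 day 21 libraries was left out. Whether its difference was itself different from theirs was not tested. The ratio of Nlrp14 to Nlrp5 was 0.0999 and 0.231 at day 7, 0.698, 0.589 and 0.695 in 4F and 1.30 and 1.13 in 8F at day 21. Nlrp14 was below Nlrp5 in every 4F library and above it in both 8F libraries. All 6 listed SCMC genes (Nlrp5, Tle6, Ooep, Khdc3, Padi6 and Zbed3) were called higher at day 21 than at day 7 in 4F, with changes between 0.83 for Khdc3 and 3.28 for Zbed3. Between 8F and 4F, 1 of the 6 was called, Nlrp5, and Padi6 had an estimate of nearly the same size (-0.80; limma, Benjamini-Hochberg adjusted p = 0.0543).

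Of 13 other Nlrp genes and pseudogenes listed, 11 were in the table and 4 passed the filter on low values. From day 7 to day 21 in 4F, Nlrp5 and the pseudogene Nlrp4g were called higher. Nlrp4g, whose annotated transcript is 94.0% identical to that of Nlrp4f, was at 62.8 and 105 TPM at day 7, at 303, 235 and 255 TPM in 4F and at 282 and 259 TPM in 8F at day 21 (change with day 1.68; limma, Benjamini-Hochberg adjusted p = 0.00165). Nlrp4f was between 2.83 and 5.22 times Nlrp4g in every library, and 3.88% of its 50-base stretches occur in Nlrp4g. Nlrp5-ps, a pseudogene that shares 40.5% of its exon bases with Vmn1r90, was at 28.5, 27.4 and 28.1 TPM in 4F and at 9.24 and 9.74 TPM in 8F at day 21 and was called lower in 8F (-1.47; adjusted p = 0.00702), a call that was lost without replicate 1 of 8F (adjusted p = 0.0534) and with a replicate block (adjusted p = 0.068). Relatives known from immune cells were low: Nlrp1a, Nlrp1b and Nlrp1c-ps were listed at 0 in the mean of every group, and Nlrp3 was at 0 at day 7 and at or below 5.70 TPM at day 21. These were named after their values were seen.

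Genes that work with NLRPs in inflammasomes were listed for comparison. Of 9 adaptors, caspases and outputs, 4 passed the filter, 0 were called higher and 1 was called lower at day 21 than at day 7 in 4F. That gene was Pycard, the adaptor ASC (4.68 TPM at day 7 and 0.223 TPM at day 21 in the mean, named after its values were seen). Of 12 other NOD-like receptor genes, 5 passed the filter and 0 were called in any of the 3 comparisons, with 0 at an unadjusted p under 0.05. The median log2 changes from day 7 to day 21 were -0.43 for the inflammasome genes and -0.10 for the other receptors, beside 3.72 for the 10 oocyte genes.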

How the data were processed

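RNA of mini-oocytes was sequenced in 7 libraries, grouped by the sample labels. The authors trimmed read pairs from the SMART-seq Stranded Kit with Trim Galore, mapped them to mm10 with HISAT2, took out rRNA reads with bedtools, kept reads with a single mapping place and counted them on GENCODE vM25 exons with featureCounts, dividing a read over overlapping genes. They deposited TPM, in which each library sums to 1000000. The study tested counts with edgeR, and counts were not used here.

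log2(TPM + 1) was fitted with limma 3.58.1 in R 4.3.3 (3 groups, all 7 libraries, eBayes with a trend). A gene was tested where 2 or more libraries reached 1 TPM (21780 of 55364, all 10 members included), two-sided, with Benjamini-Hochberg adjustment over all of them at FDR 0.05. Nlrp2, Nlrp9a and Nlrp9c met this filter only through day 21 libraries. Fold changes are on the log2(TPM + 1) scale, which understates those of low genes. Intervals are at 95%. The test was also run on simulated data, and the outcome is not given here.

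Reads and depth (9506135 to 18027834 reads on genes) were estimated from the steps of low TPM values and GENCODE vM21 exon lengths, which 98.1% of genes matched with their version. Of low values, 82.1% to 86.2% were whole reads within 0.01 read. A floor is the TPM of 3 reads, and covers counting error only. Shared stretches and identities were computed from vM21 transcripts and RefSeq promoters (GRCm38.p6) in Python 3.11.15. Gene coordinates are those of mm10.

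Every member is named. Of other lists, SCMC genes are named, and other genes past FDR 0.05 with a group mean of at least 10 TPM. Pycard, Nlrp3, the Nlrp1 genes, single markers and genes that overlap or share sequence with a member were named outside this rule, with their values seen. The marker lists are given as sums. The members, lists and motifs were chosen with earlier results of these data known. Alternatives were another pseudocount, filter, scaling or variance model, only the 2 groups compared, voom on recovered reads, a replicate block, and each library left out. No value column was left unmapped.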

Additional observations from a re-analysis of the deposited data

How the results depend on the processing

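For 4F day 21 minus 4F day 7 the 10 genes stayed past FDR 0.05 in all 18 alternatives, and for 8F day 21 minus 4F day 7 between 9 and 10 did when a library was left out. For 8F minus 4F at day 21, the count of the 10 past FDR 0.05 (0 as reported) became 1 with array weights, 1 with only the 2 groups compared, 4 with voom on recovered reads, and between 0 and 1 when a library was left out (1 without either library of 4F day 7). For all genes this comparison called 1822 as reported, 994 without the trend (61.1% of them higher, against 47.3%), 3572 with array weights, and between 306 and 2221 with a library left out, the fewest without 8F replicate 1 (306) or 2 (357). Over all genes, 8F day 21 minus 4F day 7 called 8103 as reported and between 4089 and 8281 with a library left out, with 4215 and 4089 without 8F replicate 1 and 2. 4 of the 180 member values of 8F minus 4F changed sign, none past the threshold: Nlrp4f under quantile normalization (0.09), Nlrp2 under voom (0.06), and Nlrp14 without 4F day 21 replicate 2 (-0.01) or 8F day 21 replicate 1 (-0.10); leaving out a library gave Nlrp14 values between -0.10 and 0.18. The causes were not tested, and the 4 genes called with voom are given without the share of all genes called in that setting. With fewer libraries fewer degrees of freedom are left.

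No pairing by replicate number was seen: deviations of libraries with the same number correlated between -0.04 and 0.01. In groups of 2 libraries the deviations mirror each other, so these values do not show that the libraries were unpaired. With the replicate number as a block, 8F minus 4F called 164 genes in all and 0 of the 10, and the 10 genes stayed past FDR 0.05 in both comparisons with day 7. The share of higher calls in 4F day 21 minus day 7 went from 62.3% to 48.6% (median of ratios), 54.2% (quantile) and 37.5% (voom). Voom used recovered reads in place of TPM and another variance model, so its values do not show scaling alone. In the same order, the median over all genes went from 0.17 to -0.06, 0.09 and -0.32, with medians of 3.39, 3.49 and 3.32 for the 10 genes. In 8F day 21 minus 4F day 7 the share went from 65.1% to 51.5%, 54.4% and 47.5%, and in 8F minus 4F from 47.3% to 62.8% under voom.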
